A study of Mus musculus with 6 samples.

Results

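The Notch pathway was described here by 10 of its genes, chosen by name: the receptors Notch1, Notch2 and Notch3, the ligands Jag1 and Jag2, the DNA-binding partner Rbpj, and the target genes Hes1, Hey1, Heyl and Nrarp. All 10 were among the 20482 genes with counts, and all 10 passed the filter on low counts that left 14392 genes to test. RNA was sequenced from 6 tumours of H22 cells, a mouse hepatocellular carcinoma line, grown under the skin of wild-type male C57BL/6 mice that were 6 weeks old at implantation. Controls gave the 3 lenvatinib-sensitive tumours. The 3 lenvatinib-resistant tumours were taken after 2 cycles of lenvatinib, a kinase inhibitor that acts on VEGF and FGF receptors among others, injected intraperitoneally 2 times a week at 100 mg/kg/day. The libraries held 15995403 to 17545098 counts each, and 3 counts, the limit that a count of 0 allows, correspond to 0.171 to 0.186 CPM (counts scaled to the size of the library). The treatment label reads as untreated for every tumour and the protocol mentions lenvatinib beside solvent for the controls, so the groups follow the sample titles. Drug exposure and resistance cannot be told apart in this design. Each tumour is a mixture of H22 cells and host tissue, and in such bulk RNA fewer cells of a type and less RNA per cell cannot be told apart.

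Notch receptors are cut after they bind a Jagged or Delta-like ligand on a neighbouring cell, first by an ADAM protease and then by gamma-secretase. The freed intracellular domain enters the nucleus, joins RBPJ and a Mastermind coactivator, and switches on genes such as those of the Hes and Hey repressors. In tumour vessels, Dll4 and Notch1 are known to restrain endothelial sprouting, and Notch3 is known as a receptor of the mural cells that coat vessels.

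Promoter sequence was looked at for the sites through which the pathway acts, because RBPJ and the Hes and Hey proteins bind known words. The 250 bases before the annotated start were searched on both strands for TGGGAA (reverse TTCCCA), the core of the RBPJ site, and for CACGTG, an E-box that Hes and Hey proteins can bind. The RefSeq promoter table (GRCm38.p6) held 7 of the 10 genes, in 8 windows. It held no window for the targets Hes1, Hey1 and Heyl, so their promoters were not searched. The RBPJ core was present in 1 of the 7 genes searched, Rbpj itself, in both of its windows, which overlap. The E-box was present in 1, Nrarp. Over all 32851 windows of this length, counted by window and not by gene, 21.6% held the RBPJ core, 6.0% the E-box and 1.19% both. Among the 70 windows of 52 other pathway genes, a window of Lfng and a window of Psen2 held both. Below are the receptor with the largest difference between the groups, the partner that carries the RBPJ core, the target with the highest level, and Lfng, a pathway gene in which both words stand together. Capitals mark the words found. The windows end at the RefSeq starts, which for Notch1 and Rbpj lie within the longer gene spans of GENCODE given further on. Notch1 lies on chr2:26503823-26504072 (minus strand), Rbpj on chr5:53590096-53590345 (plus), Nrarp on chr2:25180508-25180757 (plus) and Lfng on chr5:140607091-140607340 (plus).
Notch1: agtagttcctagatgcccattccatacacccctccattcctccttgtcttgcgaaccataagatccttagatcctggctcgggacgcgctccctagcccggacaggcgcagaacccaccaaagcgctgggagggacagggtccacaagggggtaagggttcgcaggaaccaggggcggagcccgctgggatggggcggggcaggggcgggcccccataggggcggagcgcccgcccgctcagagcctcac
Rbpj: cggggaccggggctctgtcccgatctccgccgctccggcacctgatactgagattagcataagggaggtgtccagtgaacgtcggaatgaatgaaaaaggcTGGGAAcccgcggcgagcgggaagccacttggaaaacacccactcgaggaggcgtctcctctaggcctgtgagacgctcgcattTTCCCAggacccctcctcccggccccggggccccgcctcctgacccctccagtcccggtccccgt
Nrarp: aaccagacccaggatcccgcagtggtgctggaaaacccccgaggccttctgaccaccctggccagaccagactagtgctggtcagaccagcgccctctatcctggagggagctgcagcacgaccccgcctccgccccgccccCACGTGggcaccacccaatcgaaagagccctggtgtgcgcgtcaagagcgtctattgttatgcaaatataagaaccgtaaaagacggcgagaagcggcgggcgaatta
Lfng: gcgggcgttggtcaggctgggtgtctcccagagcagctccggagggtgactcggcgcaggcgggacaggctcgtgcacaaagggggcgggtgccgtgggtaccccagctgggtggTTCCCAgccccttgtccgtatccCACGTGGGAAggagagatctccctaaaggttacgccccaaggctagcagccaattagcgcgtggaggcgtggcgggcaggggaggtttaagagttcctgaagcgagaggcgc
The Notch1 window held neither word. In Rbpj the core began 149 and 65 bases before the start, and in Nrarp the E-box began 108 bases before it. In Lfng the core began 135 and 108 bases before the start, and the second copy shared 2 bases with an E-box that began 112 bases before it. A match is a run of letters and not a measured binding site, and a window without a match says nothing about binding elsewhere.

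None of the 10 Notch genes passed the test for a difference between resistant and sensitive tumours. By edgeR's quasi-likelihood test, 0 of the 10 genes had an adjusted p under 0.05, where 0.00% of all tested genes did. At an unadjusted p under 0.05 there were also 0 of 10, against 9.76% of all tested genes. In none of the 10 did the values of the groups stay apart, which they did in 16.0% of all tested genes. DESeq2 called 117 genes over the whole table and limma-voom 0, and neither called any of the 10. Log2 fold changes, resistant minus sensitive, were below 0 in 8 of the 10 genes, beside 52.7% of all tested genes, and above 0 in 2, beside 47.3%. Their median was -0.20, beside -0.02 for all tested genes. The estimates ran from -0.78 for Notch1 to 0.24 for Hes1. The median standard error (SE) of a log2 fold change over all tested genes was 0.26, and the interval of each gene states which sizes these tumours allow.

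**Figure D1:**
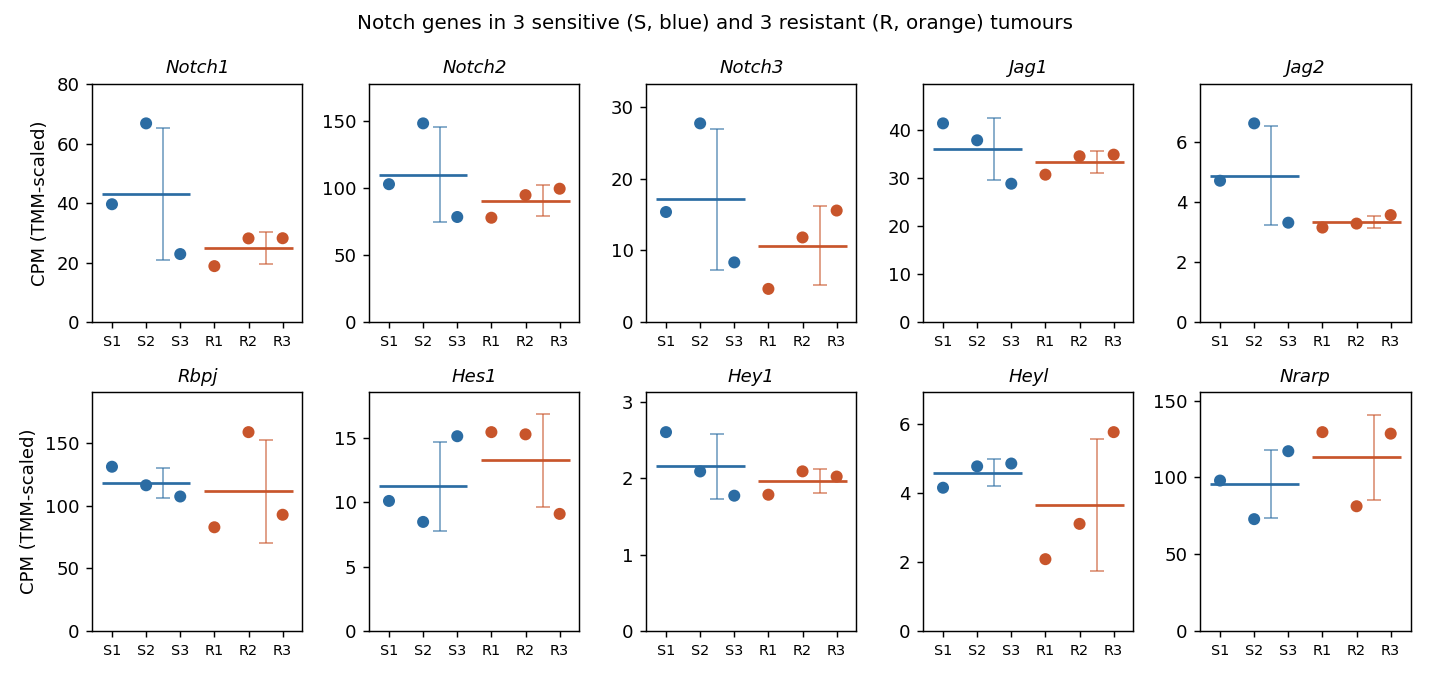
TMM-scaled CPM of the 10 Notch genes in each of the 3 sensitive (S, blue) and 3 resistant (R, orange) tumours, with group means (lines) and SD (bars), on axes that start at 0. The groups overlap in every panel, and sensitive tumour 2 is highest for Notch1, Notch2, Notch3 and Jag2.

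Among the receptors, Notch1 (ENSMUSG00000026923, GRCm38 chromosome 2, 26457903 to 26516663, minus strand), which acts in endothelial and T cells among others, stood at 39.7, 66.9 and 22.9 CPM in sensitive tumours 1 to 3. In resistant tumours 1 to 3 it stood at 18.8, 28.2 and 28.2 CPM. Sensitive tumours 1 and 2 lay above all resistant ones, while sensitive tumour 3 lay within their range. Its log2 fold change was -0.78 ± 0.40 (SE, n = 3 each; edgeR adjusted p = 0.524), with a 95% interval of 0.301 to 1.12 for the fold. Without sensitive tumour 2 the log2 fold change was -0.32, and without sensitive tumour 3 it was -1.08, at an unadjusted p of 0.013 in edgeR.

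Notch2 (ENSMUSG00000027878, chromosome 3, 98013527 to 98150361), a widely expressed receptor, measured 103, 148 and 78.4 CPM in the sensitive tumours. The resistant tumours gave 77.9, 94.7 and 99.5 CPM. Sensitive tumour 2 was high and the other 5 lay close together. edgeR gave a log2 fold change of -0.28 ± 0.24 (edgeR adjusted p = 0.672), with a fold interval of 0.551 to 1.24, and single tumours left out moved it between -0.46 without sensitive tumour 3 and 0.0012 without sensitive tumour 2.

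Notch3 (ENSMUSG00000038146, chromosome 17, 32120820 to 32166852, minus strand) varied most among the 10 genes over the tumours, with a ratio of highest to lowest CPM of 5.98. It measured 15.4, 27.7 and 8.34 CPM in the sensitive group, against 4.64, 11.8 and 15.6 CPM in the resistant tumours. Sensitive tumour 2 was highest and resistant tumour 1 lowest, and resistant tumour 3 stood slightly above sensitive tumour 1. This gave a log2 fold change of -0.68 ± 0.57 (edgeR adjusted p = 0.656), with a fold interval of 0.241 to 1.61. It was -0.15 without sensitive tumour 2 and -0.32 without resistant tumour 1, but -1.05 without resistant tumour 3 and -1.01 without sensitive tumour 3.

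Of the ligands, Jag1 (ENSMUSG00000027276, chromosome 2, 137081456 to 137116644, minus strand) was the steadiest of the 10 genes, with a ratio of highest to lowest CPM of 1.44. Its values were 41.3, 37.8 and 28.8 CPM in the sensitive tumours and 30.7, 34.5 and 34.8 CPM in the resistant tumours. All 3 resistant values lay inside the sensitive range. The log2 fold change was -0.11 ± 0.19 (edgeR adjusted p = 0.833), with a fold interval of 0.682 to 1.26. It was 0.03 without sensitive tumour 1 and -0.24 without sensitive tumour 3.

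Jag2 (ENSMUSG00000002799, chromosome 12, 112907819 to 112929776, minus strand) was scarce, at 53 to 111 counts per tumour. It measured 4.71, 6.62 and 3.31 CPM in the sensitive group, against 3.15, 3.28 and 3.57 CPM in the resistant ones. As for the receptors, sensitive tumour 2 was highest and sensitive tumour 3 lay among the resistant tumours. Its log2 fold change was -0.55 ± 0.36 (edgeR adjusted p = 0.585), with a fold interval of 0.375 to 1.24. Without sensitive tumour 2 it was -0.27, and without sensitive tumour 3 it was -0.76.

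Rbpj (ENSMUSG00000039191, chromosome 5, 53466152 to 53657362), through which all Notch receptors act on DNA, measured 131, 116 and 107 CPM in the sensitive tumours. In the resistant tumours it stood at 82.7, 159 and 92.7 CPM. The resistant tumours spanned both the lowest and the highest value of the 6. edgeR gave a log2 fold change of -0.09 ± 0.26 (edgeR adjusted p = 0.908), with a fold interval of 0.615 to 1.44. Without resistant tumour 2 it was -0.42, at an unadjusted p of 0.038 in edgeR, and without resistant tumour 1 it was 0.09. Leaving out sensitive tumour 1 gave 0.02, and leaving out resistant tumour 3 gave 0.03. A processed pseudogene (ENSMUSG00000079575, Rbpj-ps3 in GENCODE) was counted apart, at 16.7% to 27.2% of the Rbpj count in each tumour, so the authors' rule for shared reads could shift the Rbpj level. The sum of both was 156, 136 and 137 CPM in the sensitive and 102.0, 188 and 116 CPM in the resistant tumours.

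Among the targets, Hes1 and Nrarp were lowest in sensitive tumour 2 and narrowly highest in resistant tumour 1, the reverse of the receptors. The other targets differed, with Heyl lowest in resistant tumour 1, as the receptors were, and Hey1 narrowly lowest in sensitive tumour 3. Among all tested genes, 29.8% were lowest in sensitive tumour 2 and 16.2% highest in resistant tumour 1. Hes1 (ENSMUSG00000022528, chromosome 16, 30064384 to 30067796), a repressor that is the classical Notch target, measured 10.1, 8.47 and 15.1 CPM in the sensitive tumours. The resistant tumours gave 15.5, 15.3 and 9.10 CPM. The lowest value was that of sensitive tumour 2, the tumour with the most RNA of each Notch receptor. The highest was that of resistant tumour 1, the tumour with the least, but resistant tumour 2 and sensitive tumour 3 stood close to it. This gave a log2 fold change of 0.24 ± 0.33 (edgeR adjusted p = 0.791), with a fold interval of 0.681 to 2.05. It was 0.07 without sensitive tumour 2 and 0.12 without resistant tumour 1, but 0.52 without sensitive tumour 3 and 0.45 without resistant tumour 3.

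Nrarp (ENSMUSG00000078202, chromosome 2, 25180758 to 25183339), a target whose small ankyrin protein limits Notch signalling in return, had the same lowest and highest tumours. It measured 98.0, 72.9 and 117 CPM in the sensitive group, against 130, 81.3 and 129 CPM in the resistant tumours. Sensitive tumour 2 was again lowest and resistant tumour 1 again highest, with resistant tumour 2 close to the lowest and resistant tumour 3 close to the highest. The log2 fold change was 0.24 ± 0.25 (edgeR adjusted p = 0.720), with a fold interval of 0.783 to 1.77. Without sensitive tumour 2 it was 0.07, without resistant tumour 1 it was 0.13, and without resistant tumour 2 it was 0.44. GENCODE places an antisense gene over almost the whole of Nrarp, and no source used here says whether strand was kept, so reads of the pair cannot be told apart.

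Hey1 (ENSMUSG00000040289, chromosome 3, 8663359 to 8667256, minus strand), a repressor best known from the vessel wall and heart, was the scarcest of the 10 genes, at 30 to 42 counts per tumour. Its values were 2.60, 2.09 and 1.77 CPM in the sensitive tumours and 1.78, 2.09 and 2.02 CPM in the resistant tumours. Its log2 fold change was -0.13 ± 0.36 (edgeR adjusted p = 0.898), with a fold interval of 0.507 to 1.64, and it was 0.05 without sensitive tumour 1 and -0.25 without sensitive tumour 3. Heyl (ENSMUSG00000032744, chromosome 4, 123233556 to 123249875), a related repressor that acts in mural cells, measured 4.15, 4.77 and 4.86 CPM in the sensitive tumours. In the resistant tumours it stood at 2.08, 3.10 and 5.77 CPM. The sensitive tumours agreed closely and lay inside the spread of the resistant ones. edgeR gave a log2 fold change of -0.33 ± 0.44 (edgeR adjusted p = 0.781), with a fold interval of 0.385 to 1.64. It was -0.82 without resistant tumour 3 and -0.05 without resistant tumour 1.

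**Figure D2:**
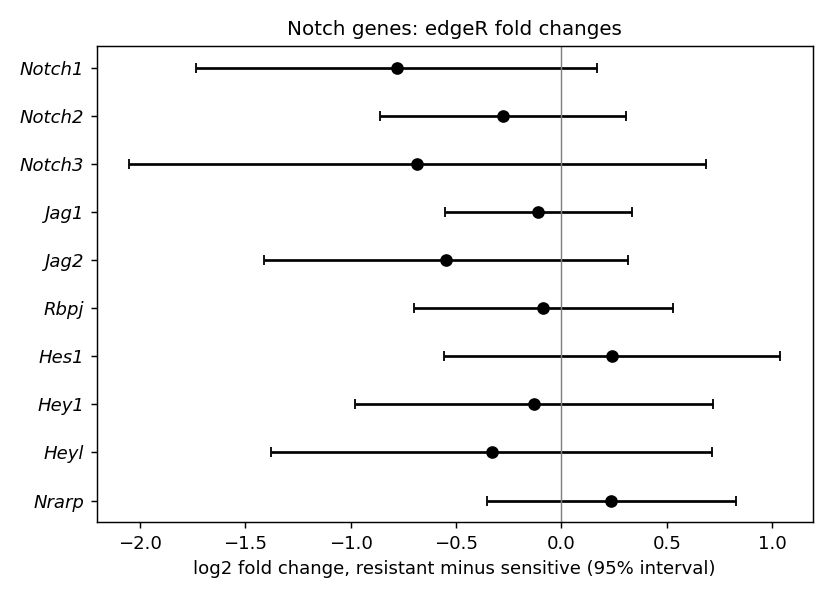
Log2 fold changes of the 10 Notch genes, resistant minus sensitive, from edgeR (points) with 95% intervals (bars) for 3 tumours against 3. Every interval crosses 0, from Notch1 at -0.78 to Hes1 at 0.24.

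Levels were compared between genes per length, as deposited FPKM averaged over the 6 tumours (mean ± SD, n = 6). Nrarp stood far above the other genes at 40.6 ± 10.6 FPKM, and its lowest tumour, at 27.6, exceeded the highest of Notch2, at 13.0. Notch2 was the most abundant receptor at 8.90 ± 2.18 FPKM, followed by Notch1 at 2.13 ± 1.05 and Notch3 at 1.71 ± 0.96. Between them lay Rbpj at 5.56 ± 1.25, Jag1 at 5.06 ± 0.52 and Hes1 at 4.29 ± 1.24 FPKM. Jag2 at 1.00 ± 0.31, Heyl at 0.78 ± 0.26 and Hey1 at 0.44 ± 0.05 FPKM came last. From Notch2 downward, the ranges of each gene and the next overlapped over the tumours. Within tumours, on the deposited lengths, Notch2 exceeded Rbpj in 6 of 6 tumours and Heyl exceeded Hey1 in 6 of 6. Notch1 exceeded Notch3 in 5 of 6 tumours, and Jag1 exceeded Hes1 in 3 of 6. The lengths behind the FPKM were not those of GENCODE for every gene, with 20512 bases for Rbpj where the joined exons of GENCODE release M21 cover 12750, and 4054 for Jag2 where they cover 6965. With the GENCODE lengths, Rbpj stood at 8.95, Hes1 at 6.02 and Jag2 at 0.58 FPKM, which put Jag2 last and Hes1 above Jag1. The orders within tumours moved as well, since on those lengths Notch2 exceeded Rbpj in 3 of 6 tumours and Heyl exceeded Hey1 in 4 of 6.

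**Figure D3:**
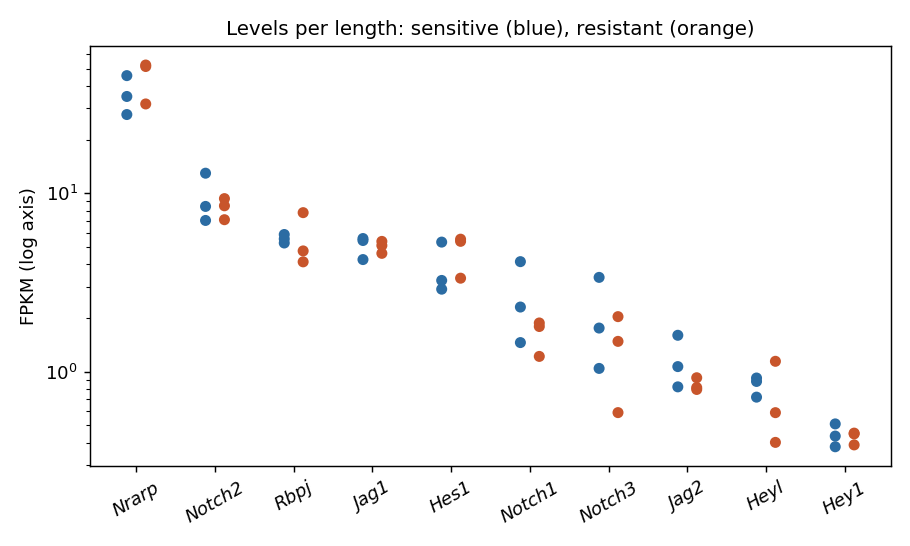
FPKM (log axis) of the 10 Notch genes in each sensitive (blue) and resistant (orange) tumour, ordered by the mean of the 6 tumours. Nrarp, at 27.6 to 52.4 FPKM, stands above all others, and neighbours from Notch2 downward overlap.

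The rest of the pathway was read through 65 further genes, of which 60 were tested (Hes5 was not analysed here). Their log2 fold changes were above 0 in 22 and below 0 in 38, with a median of -0.12 beside -0.02 for all tested genes. None passed the adjusted threshold in edgeR, DESeq2 or limma-voom. At an unadjusted p under 0.05 in edgeR there was 1 gene with more RNA in resistant tumours, where 4.02% of all tested genes lay, and there were 8 with less, where 5.73% lay. On TMM-scaled CPM, the resistant values lay wholly above the sensitive ones in 3 genes, beside 8.41% of all tested genes. They lay wholly below in 12, beside 7.54%. The 9 genes at an unadjusted p under 0.05 became 0 when resistant tumour 1 was left out. Leaving out resistant tumour 2 gave 3, and 5 remained in number without sensitive tumour 1, without sensitive tumour 2 or without resistant tumour 3. With library-size scaling or limma-voom there were 5, and on log2(FPKM + 1) there were 3.

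The coactivators that complete the nuclear Notch complex made up the sublist with the most even direction. Their log2 fold changes lay below 0 in 7 of 7 genes, beside 52.7% of all tested genes. They ran from -1.18 to -0.07, with a median of -0.33. The value nearest 0 was that of Snw1, whose mean FPKM was higher in resistant tumours, at 48.2 beside 47.6. In 6 of the 7 all sensitive values lay above all resistant ones on TMM-scaled CPM, beside 7.54% of all tested genes. Some of these groups barely parted. The nearest values were 76.4 and 75.0 CPM for Ep300, 54.4 and 52.9 CPM for Kat2b, and 39.3 and 39.2 CPM for Maml1. On deposited FPKM the groups of Ep300, Kat2b, Maml1 and Snw1 overlapped, and only those of Maml2 and Crebbp stayed apart. Maml2, a Mastermind protein, measured 11.5, 23.3 and 11.8 CPM in the sensitive group, against 4.52, 7.76 and 8.26 CPM in the resistant tumours, a log2 fold change of -1.18 ± 0.40 (edgeR adjusted p = 0.510). Sensitive tumour 2 was again highest, but the other sensitive tumours also lay above the resistant ones, and the log2 fold change without it was -0.77. The histone acetyltransferases Ep300, Crebbp and Kat2b had log2 fold changes of -0.67 ± 0.28, -0.33 ± 0.14 and -0.44 ± 0.19. Without sensitive tumour 2, that of Ep300 was -0.29, that of Crebbp -0.22 and that of Kat2b -0.31. These enzymes serve many transcription factors beside Notch.

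Of the 13 corepressors, which hold RBPJ targets silent when Notch is off, 8 had log2 fold changes below 0 and 5 above, with a median of -0.19. Ncor1 measured 197, 219 and 203 CPM in the sensitive group, against 151, 159 and 169 CPM in the resistant tumours, a log2 fold change of -0.37 ± 0.11 (edgeR adjusted p = 0.510). Its groups stayed apart. The deacetylase Hdac1 stood at -0.26 ± 0.12 on the log2 scale. Tle4, a Groucho-type corepressor, stood at -1.45 ± 0.74, or -0.44 without sensitive tumour 2.

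Of the 9 genes of the cleavage step, 5 had log2 fold changes above 0 and 4 below, with a median of 0.07. Psen2, one of the alternative catalytic subunits of gamma-secretase, measured 17.4, 29.9 and 7.25 CPM in the sensitive group, against 3.15, 7.16 and 8.44 CPM in the resistant tumours. Its log2 fold change was -1.54 ± 0.59 (edgeR adjusted p = 0.510), and -0.98 without sensitive tumour 2. The gamma-secretase subunits Aph1b, Aph1a and Ncstn had log2 fold changes of 0.52 ± 0.22, 0.22 ± 0.18 and 0.16 ± 0.13. With single tumours left out, that of Aph1a ran from 0.09 to 0.36 and that of Ncstn from 0.08 to 0.25. In Aph1b and Ncstn all resistant values lay above all sensitive ones, though in Ncstn the groups met at 143 CPM.

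Of the 15 genes that sort or mark receptors and ligands for uptake and decay, 4 had log2 fold changes above 0 and 11 below, with a median of -0.11. Numbl, a Numb-type adaptor that opposes Notch, was the single pathway gene at an unadjusted p under 0.05 with more RNA in resistant tumours. It measured 17.1, 15.9 and 15.9 CPM in the sensitive group, against 22.1, 24.2 and 20.9 CPM in the resistant tumours, a log2 fold change of 0.45 ± 0.17 (edgeR adjusted p = 0.510). The endocytic adaptor Epn2 stood at -0.45 ± 0.16, the ubiquitin ligase Itch at -0.27 ± 0.11 and Neurl3 at -1.25 ± 0.57 on the log2 scale. In Numbl, Epn2 and Itch the groups stayed apart on CPM, but on FPKM those of Epn2 and Itch overlapped. Neurl3 was high in sensitive tumour 2, at 50.6 CPM beside 6.54 to 16.3 CPM elsewhere. Without that tumour it stood at -0.42 on the log2 scale.

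Of the 6 genes that mature and glycosylate receptors, 4 had log2 fold changes below 0, with a median of -0.21. The Fringe enzymes Lfng and Mfng, which add sugars that shift receptors towards Delta-like ligands, had log2 fold changes of -0.66 ± 0.35 and -0.91 ± 0.50. Both were highest in sensitive tumour 2, at 56.2 and 23.4 CPM, and lowest in resistant tumour 1, at 19.0 and 5.17 CPM. Without sensitive tumour 2 they stood at -0.19 and -0.38. The fucosyltransferase Pofut1 and the glucosyltransferase Poglut1 stood at -0.34 ± 0.27 and -0.08 ± 0.15. Pofut1 was at -0.58 without sensitive tumour 2 and at -0.07 without sensitive tumour 3, and Poglut1 ran from -0.18 to 0.02 with single tumours left out.

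Among the other receptor and ligands, Notch4, an endothelial receptor, measured 9.79, 15.7 and 10.3 CPM in the sensitive group, against 7.07, 8.60 and 12.2 CPM in the resistant tumours. Dll4, the ligand of sprouting vessels, stood at 9.73, 15.2 and 8.63 CPM in the sensitive group, against 5.53, 8.78 and 9.99 CPM in the resistant tumours. Both were highest in sensitive tumour 2 and lowest in resistant tumour 1, and the groups overlapped. The log2 fold changes were -0.36 ± 0.32 for Notch4, -0.46 ± 0.35 for Dll4 and -0.67 ± 0.54 for Dll1. Without sensitive tumour 2 they were -0.11, -0.18 and 0.03, without resistant tumour 1 those of Notch4 and Dll4 were -0.19 and -0.25, and without resistant tumour 3 that of Notch4 was -0.60. Dlk2, a Delta-like protein without the domain that activates receptors, had a log2 fold change of 0.68 ± 0.34 (edgeR adjusted p = 0.524), at 6.50 to 14.0 CPM in the sensitive and 12.5 to 18.5 CPM in the resistant tumours. It was 1.05 without sensitive tumour 3, at an unadjusted p of 0.014 in edgeR, and 0.46 without sensitive tumour 2.

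Of the 6 further targets tested, 5 had log2 fold changes above 0. Sox9 stood at 0.57 ± 0.43, the cell cycle inhibitor gene Cdkn1a at 0.33 ± 0.23 and the cyclin gene Ccnd1 at 0.22 ± 0.16, all of which other pathways also control. With single tumours left out, Sox9 ran from 0.33 without sensitive tumour 2 to 0.90 without resistant tumour 3 (unadjusted p of 0.038 in edgeR), Cdkn1a from 0.15 to 0.46 and Ccnd1 from 0.15 to 0.34. Dtx1, which encodes a ubiquitin ligase also made by lymphocytes, was the exception. It stood at 21.8 CPM in sensitive tumour 2 and at 0.30 to 1.43 CPM in the other 5, a log2 fold change of -3.44 ± 1.36 (edgeR adjusted p = 0.510), or -0.69 without that tumour. The 7 markers of B and plasma cells summed to 7211 CPM in sensitive tumour 2 and to 2.44 to 107 CPM in the others. The part of lymphocytes in the Dtx1 value was not tested.

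**Figure D4:**
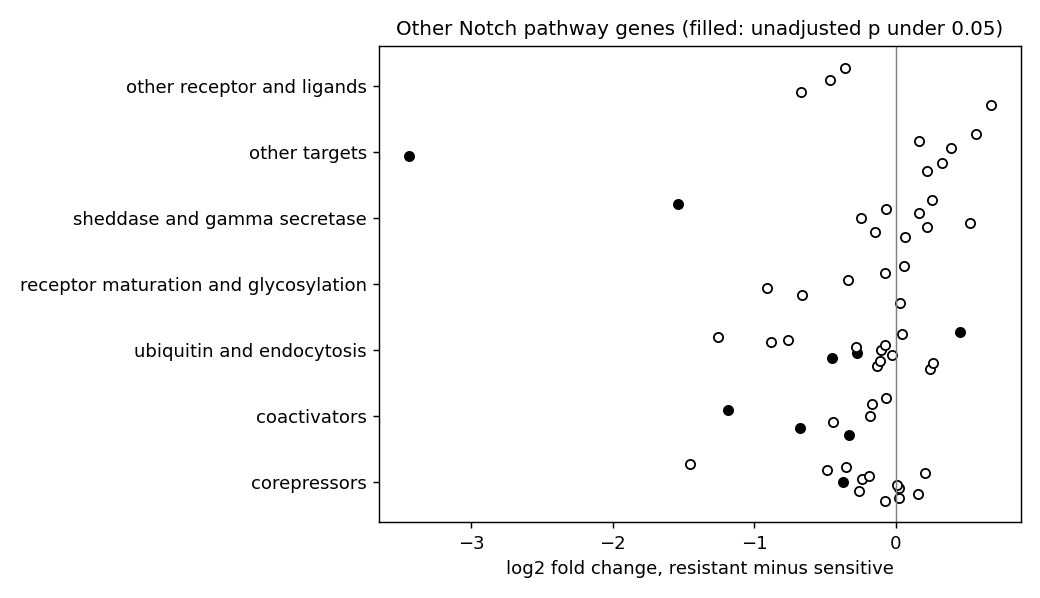
Log2 fold changes, resistant minus sensitive, of the 60 other Notch pathway genes tested, one row per sublist, with filled points at an unadjusted p under 0.05 in edgeR. The 7 coactivators all lie below 0, and Dtx1 at -3.44 lies farthest from the rest.

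Over the 6 tumours, the 3 receptors and the summed markers of vessels, of T cells and of B and plasma cells had the same tumour at the top. Sensitive tumour 2 held the highest value of 4 of the 10 Notch genes and of 24 of the 60 others (40%), beside 32.6% of all tested genes. It also held the lowest value of 2 of the 10, of 18 of the 60 (30%) and of 29.8% of all tested genes. Resistant tumour 1 held the lowest value of 6 of the 10 (60%) and of 20 of the 60 (33.3%), beside 24.3% of all tested genes. The 10 endothelial markers, none at 0 in any tumour, summed to 369, 532 and 215 CPM in the sensitive and to 146, 254 and 238 CPM in the resistant tumours. All 10 had log2 fold changes below 0, from -1.26 to -0.04, beside 52.7% of all tested genes. Kdr and Cdh5 reached an unadjusted p under 0.05 in edgeR, where 5.73% of all tested genes lay with less RNA in resistant tumours. The 9 mural markers, also none at 0, summed to 159 to 518 CPM in the sensitive and 183 to 277 CPM in the resistant tumours. Again all log2 fold changes were below 0, and Cspg4 and Abcc9 reached an unadjusted p under 0.05 in edgeR. Both sums were highest in sensitive tumour 2, like the 3 receptors, although Emcn and Des were highest in sensitive tumour 1. The endothelial sum was lowest in resistant tumour 1, as the receptors were, and the mural sum in sensitive tumour 3. Des, which the mural sum includes, ran from 3.14 CPM in sensitive tumour 3 to 158 CPM in sensitive tumour 1. The summed skeletal muscle markers were lowest and highest in these same tumours. The B and plasma cell sum was also lowest in resistant tumour 1, and the T cell sum was lowest in resistant tumour 2. The part of vessel or lymphocyte content in the receptor values was not tested.

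Fibroblast markers had another order, from 1668 to 3846 CPM in the sensitive and from 1964 to 6503 CPM in the resistant tumours, with the highest sum in resistant tumour 2. Macrophage markers were also highest there, at 1718 CPM, beside 554 to 1218 CPM in the others. Rbpj had its highest value in that tumour, and the part of these cells in it was not tested. The 7 T cell markers summed to 375 CPM in sensitive tumour 2 and to 7.28 to 41.8 CPM in the others, with Cd3d at 0 in resistant tumour 2, and Ms4a1 of the B and plasma cell list was at 0 there too. Adipocyte markers summed to 401.0 to 1381 CPM in the sensitive and 41.0 to 616 CPM in the resistant tumours, with the lowest sum in resistant tumour 1. The tumour markers were present, with all 8 genes of the hepatocyte and liver tumour list read in every tumour, at a sum of 674 to 856 CPM in the sensitive and 837 to 1255 CPM in the resistant tumours. Krt8 and Krt18 made up most of that sum and had log2 fold changes of 1.16 ± 0.26 and 0.72 ± 0.25, while 4 of the 8, among them Alb at -0.64 ± 0.11 and Hnf4a at -1.06 ± 0.49, lay below 0. Skeletal muscle markers summed to 1332 CPM in sensitive tumour 1 and to 1.37 to 257 CPM elsewhere, with Ckm, Myh1, Myh4 and Ttn at 0 in at least 1 tumour. The 2 of 5 keratinocyte markers in the table summed to 1.71 to 4.78 CPM, with Krt14 at 0 in sensitive tumour 1.

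**Figure D5:**
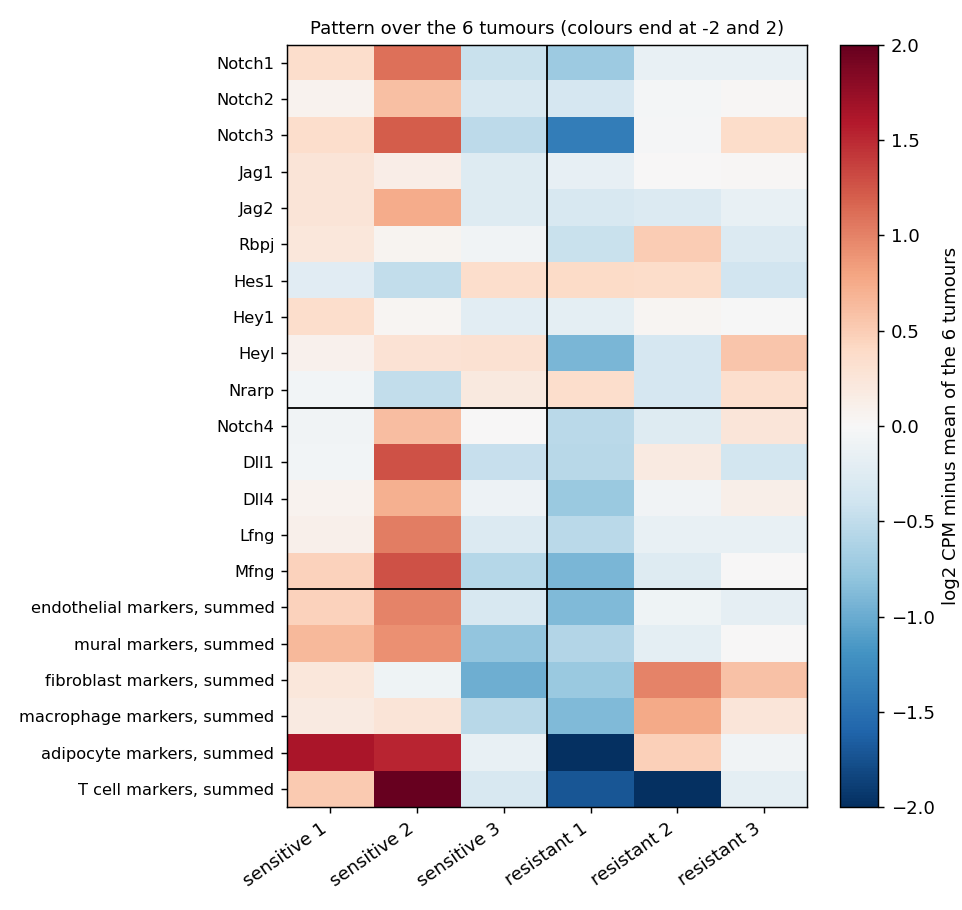
Log2 CPM minus its mean over the 6 tumours, for the 10 Notch genes, 5 further pathway genes and 6 summed marker lists, with colours that end at -2 and 2. Notch1, Notch2, Notch3, Dll4, Lfng, Mfng and the endothelial, mural and T cell sums are highest in sensitive tumour 2, while Hes1 and Nrarp are lowest there.

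The genes most like each receptor were sought among the others whose mean log2 CPM reached 3, by the root mean square difference of log2 CPM centred over the 6 tumours. For Notch1 these were Mmrn2, an endothelial matrix protein, at 0.068, Plvap, a protein of endothelial pores, at 0.077, and 2510009E07Rik at 0.079. Mmrn2 measured 24.5, 41.7 and 12.6 CPM in the sensitive group, against 11.2, 15.7 and 16.3 CPM in the resistant tumours. For Notch2 they were Hmbox1 at 0.051, Robo4, an endothelial guidance receptor, at 0.052, and Ssbp3 at 0.067. For Notch3 they were Itm2a at 0.11, Msrb3 at 0.12 and Srpx at 0.13. For Hes1 they were Fbxo32, a ubiquitin ligase gene, at 0.094, Gm5900 at 0.11 and Zbtb10 at 0.11. These are the nearest of 10409 candidates each over 6 tumours, and the spread of the members themselves about their means was 0.59 for Notch1, 0.31 for Notch2, 0.80 for Notch3 and 0.37 for Hes1.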

How the data were processed

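RNA of 6 tumours was sequenced from VAHTS Universal V6 libraries. The authors deposited read counts per gene, whole numbers without normalization, and FPKM per gene, both per the file headers. HISAT2, StringTie and edgeR were used per the submitters' processing notes. Their versions, the build, the annotation and the rules for strand and shared reads were not given in the sources used here. Total counts ran from 15995403 to 17545098 per tumour, and 3 counts correspond to 0.171 to 0.186 CPM. Of the gene identifiers, 20355 of 20482 were found in GENCODE M21 (GRCm38), from which coordinates were taken.

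Counts were tested over the whole table with edgeR 4.0.16 in R 4.3.3 (filterByExpr, TMM, quasi-likelihood F-test, Benjamini-Hochberg adjustment, threshold 0.05). Each SE is the log2 fold change divided by the root of F, and 95% intervals use the test's degrees of freedom. Tried beside this were scaling by RLE, by upper quartile or by library size, no filter, DESeq2 1.42.0, limma 3.58.1 (voom, and trend on log2(FPKM + 1) and log2(FPKM + 0.1)), each tumour left out and the replicate number as a block. Levels on GENCODE lengths were added after the data were seen. The genes, lists and tests were chosen with earlier results of these data known. Named were the 10 genes, the 4 with the smallest p of each pathway sublist, the 3 most alike for each receptor and Hes1, and markers. Maml1, Snw1, the pseudogene of Rbpj and single markers at 0 were named after their values were seen. A few genes that these rules name are not reported here. The design calls the tumours biological replicates.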

Additional observations from a re-analysis of the deposited data

How the results depend on the processing

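None of the 10 Notch genes had an adjusted p under 0.05 under any of the 15 alternatives, and none of the 60 other pathway genes had one. DESeq2 called 117 genes over all, while the main edgeR fit and every other alternative called 0. Outside DESeq2 the absence of calls therefore says nothing particular about the Notch genes. Leaving out single tumours moved the number of genes at an unadjusted p under 0.05 from 1404 to between 631 and 2666, that of Notch genes from 0 to between 0 and 1, and that of other pathway genes from 9 to between 0 and 11. The last was 5 with library-size scaling, 5 with limma-voom, and 3 and 2 on log2(FPKM + 1) and log2(FPKM + 0.1). Directions that turned did so close to 0. With single tumours left out, log2 fold changes ran from -0.46 to 0.0012 for Notch2, from -0.24 to 0.025 for Jag1, from -0.42 to 0.092 for Rbpj, from -0.25 to 0.049 for Hey1, from -0.97 to 0.031 for Dll1 and from -0.18 to 0.018 for Poglut1. That of Poglut1 was also 0.0049 with library-size scaling and 0.012 and 0.014 on the FPKM scales. The causes were not tested. Of the 570 values of single genes under alternatives, 559 kept their direction and 11 reversed it. This counts directions only, since outside DESeq2 no gene of the whole table passed the adjusted threshold.

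Replicate numbers were not taken to pair the tumours, since no source used here says that they do. Same-numbered deviations from the group means correlated at 0.054, 0.31 and -0.16. Sensitive tumour 1 correlated best with resistant tumour 2, at 0.15, and sensitive tumour 3 with resistant tumour 1, at 0.50. Sensitive tumour 2 correlated at 0.31 with resistant tumours 2 and 3 alike. Deviations from a mean of 3 tumours depend on each other, so these values cannot decide on pairing. With the replicate block there were 0 genes at an adjusted p under 0.05, 1120 at an unadjusted one, and 6 of the other pathway genes among them. With 3 tumours a group, Hey1 at 30 to 42 counts and Jag2 at 53 to 111 counts per tumour are limited by depth as well as by spread.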

Other observations

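Of the pathway genes in the table, 4 did not pass the filter on low counts. The ligand genes Dll3 and Dlk1 were read at 0 to 0.42 CPM and 0.12 to 1.13 CPM over the 6 tumours. The target genes Hey2 and Ptcra were read at 0.30 to 0.66 CPM and 0 to 0.24 CPM. The highest value of Dlk1, an oncofetal gene of liver, was that of resistant tumour 3. Where a level is 0, the count allows up to 0.171 to 0.186 CPM, from counting error alone.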
